A study of Mus musculus with 2 samples.

Results

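The committed preadipocyte pole is the end of the subcutaneous adipocyte precursor range at which transcripts of basement membrane collagens, lipoprotein lipase and Icam1 are high and those of Dpp4-type interstitial progenitors are low. It held 1206 of the 6670 cells that passed the filters, out of 6905 cell barcodes in all. The members were selected on a score, D, computed from the same counts that are described here. D was the mean level of Dpp4, Wnt2, Bmp7, Anxa3 and Pi16 minus the mean level of Col15a1, Col4a1, Col4a2, Lpl and Icam1, with each level taken as the natural log of 1 plus the counts per 10000 in that cell. The lowest 20% of D was taken, which was 1334 cells at or below −0.883. From these, 128 cells were removed because they lay in the top 6% of a second score, the mean level of F3, Gdf10, Fmo2, Meox2 and Clec11a, which marks a separate stromal class named here F3-type cells. All values below are therefore descriptions of cells chosen by these genes, and none is a test.

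The cells were flow-sorted adipocyte precursors from subcutaneous adipose tissue of 12-day-old wild-type mouse pups, cross-fostered and nursed by dams that gave milk fat of high or of low n-6/n-3 ratio in its polyunsaturated fatty acids. The study made 1 sample per milk fat, from 3000 sorted cells each, with 10x Genomics 3′ version 2 chemistry; the labels call the cells fresh in one protocol and cryopreserved and thawed in another. Both samples sat in a single count matrix, in which barcodes end in 1 or 2, and no label ties an ending to a milk fat. The endings are called library 1 and library 2, the 2 libraries are given side by side, and no comparison of the milk fats was made. Neither the strain, the sex nor the number of pups pooled is given in the labels. Libraries 1 and 2 held 1360 and 1420 filtered cells counted as positive for Xist and 798 and 1022 counted as positive for Y-linked genes. Transcripts of both sexes were thus present in each library.

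Preadipocytes are fibroblast-like cells that can turn into fat cells. In subcutaneous fat, cells marked by Dpp4 in the fibrous interstitium are regarded as an early progenitor, and cells marked by Icam1 as a later, committed one in which Pparg, the master transcription factor of fat cell formation, begins to be expressed. Lipoprotein lipase, encoded by Lpl, releases fatty acids from circulating triglyceride, and the type IV and type XV collagens belong to the basement membrane that encloses every mature fat cell.

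Several sequences help to place these genes. Col4a1 and Col4a2 encode the partner chains of type IV collagen and lie head to head on chromosome 8. In GRCm38 the annotation puts Col4a1 at chr8:11198423-11312826 on the minus strand and Col4a2 at chr8:11312805-11449287 on the plus strand, so that their start sites are 21 bases apart. The 22 bases that both first exons cover, chr8:11312805-11312826 on the plus strand of GRCm38.p6 (RefSeq), are shown because both genes belong to the rule and share a start region.
Col4a1 and Col4a2 shared start: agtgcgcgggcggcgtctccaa

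Icam1, an adhesion molecule of the rule, and many chemokine and cytokine genes are textbook targets of NF-kB. The 250 bases before the RefSeq start of Icam1, of Cxcl1 and Il6, which were higher in the members, and of Cxcl2, which did not pass the fold used here, are printed 5′ to 3′ on the plus strand of GRCm38.p6. Capitals mark matches, on either strand, to a short form, GGAAATTCC, or a long form, GGG followed by any 2 bases and TTTCC, of the NF-kB motif; the forms can overlap each other. The windows are chr9:21015690-21015939 for Icam1, chr5:90890995-90891244 for Cxcl1, chr5:30012864-30013113 for Il6 and chr5:90903649-90903898 for Cxcl2. The start in the RefSeq table can differ from the first base of the gene in the annotation used for gene positions.
Icam1: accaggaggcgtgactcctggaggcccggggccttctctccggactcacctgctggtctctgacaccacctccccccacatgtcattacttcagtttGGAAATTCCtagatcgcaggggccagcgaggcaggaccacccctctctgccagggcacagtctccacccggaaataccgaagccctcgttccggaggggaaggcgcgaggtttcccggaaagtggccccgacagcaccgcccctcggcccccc
Cxcl1: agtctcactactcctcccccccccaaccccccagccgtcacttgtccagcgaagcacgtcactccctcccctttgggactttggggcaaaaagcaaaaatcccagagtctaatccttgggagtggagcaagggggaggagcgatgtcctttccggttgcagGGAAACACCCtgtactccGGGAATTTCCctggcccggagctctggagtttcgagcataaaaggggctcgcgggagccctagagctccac
Il6: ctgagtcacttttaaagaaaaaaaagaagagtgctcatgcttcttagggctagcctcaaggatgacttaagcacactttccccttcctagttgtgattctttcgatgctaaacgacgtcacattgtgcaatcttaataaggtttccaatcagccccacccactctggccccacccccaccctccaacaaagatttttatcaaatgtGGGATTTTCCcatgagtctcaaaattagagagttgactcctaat
Cxcl2: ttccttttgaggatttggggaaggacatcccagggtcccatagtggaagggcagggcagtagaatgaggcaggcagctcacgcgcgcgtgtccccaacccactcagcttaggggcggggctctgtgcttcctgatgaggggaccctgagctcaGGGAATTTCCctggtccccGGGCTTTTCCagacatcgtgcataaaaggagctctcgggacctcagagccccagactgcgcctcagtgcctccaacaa

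The Icam1 window held GGAAATTCC 153 bases before the start. In the Cxcl1 window the long form occurred 71 bases before the start on the same strand and 89 bases before it on the opposite strand. The Il6 window held the long form 44 bases before the start, and the Cxcl2 window held it at 97 and 78 bases. In the Cxcl1 and Cxcl2 windows a GGAAATTCC on the opposite strand, at 70 and 96 bases, overlapped one of these. Among 32817 RefSeq windows of this length, 0.286% held GGAAATTCC, 1.41% held the long form and 1.61% held either. Of the 23 inflammatory genes measured here, Icam1 included, 17 had a window and 10 of these held either motif: 3 of the 8 that were higher in the members (Icam1, Cxcl1 and Il6) and 7 of the 9 that did not pass the fold. Windows with a match were thus found among genes of both kinds.

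The libraries held 3321 and 3584 barcodes with 42092816 and 43491307 UMIs, the molecule counts of this assay. The filters left 3220 and 3450 cells, of which 568 in library 1 and 638 in library 2 were members. This was 17.6% (95% Clopper-Pearson interval 16.34 to 19.001) and 18.5% (17.21 to 19.83) of the filtered cells. Intervals here and below cover counting error only. Members had fewer UMIs than the other filtered cells, with medians of 11413 against 13285 in library 1 and 10714 against 12363 in library 2, and fewer genes, with medians of 2716 against 3057 and 2586 against 2937. The share of mitochondrial UMIs had medians of 1.76% and 1.85% in the members and 1.73% and 1.75% in the other cells. Across the libraries 17 barcode sequences occurred in both, and 8 members carried one of them. Of 215 cells set aside as cycling by Mki67 and Top2a, 51 lay at or below the same value of D, a share of 23.7% (18.2 to 29.98).

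**Figure D1:**
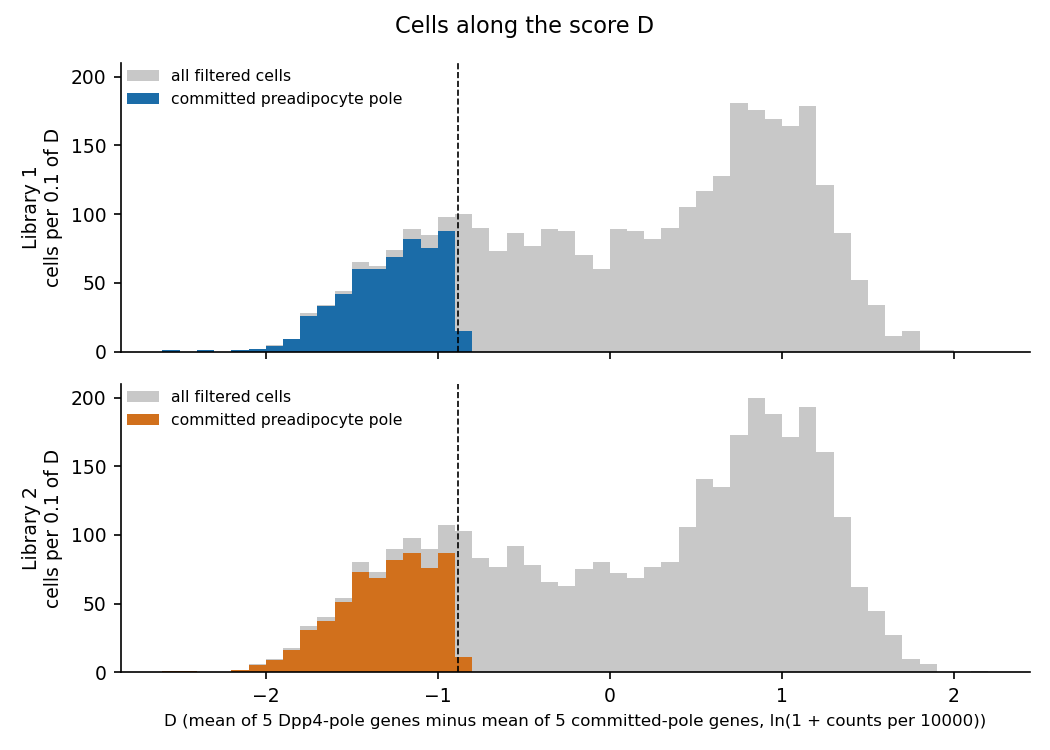
Number of filtered cells (vertical axis) in steps of 0.1 of D (horizontal axis) in each library, with members coloured and the boundary at −0.883 dashed; grey below the boundary is F3-type cells. Cells peak near D of −0.9 (100 and 107 cells in the fullest steps), thin out to 60 and 63 and peak again near 0.8 (181 and 200); the boundary lies at the lower of these peaks, and no gap lies there.

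Cells just inside and just outside the boundary are described by the genes that make up D. Within 0.1 of D, 92 and 80 members lay inside and 87 and 85 cells outside. Col15a1 was at 260 CPM (a gene's UMIs per 1000000 UMIs summed over the cells of a group) in library 1 and 276 CPM in library 2 just inside, and at 217 and 228 CPM just outside. Col4a1 was at 638 and 537 CPM inside and at 469 and 448 CPM outside. Lpl was at 1189 and 1148 CPM inside and at 1175 and 1156 CPM outside. Dpp4 was at 51.0 and 50.8 CPM inside and at 60.0 and 51.5 CPM outside.

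The 5 genes that chose the members are given as a description. Col15a1 (chr4:47208161-47313167, plus strand), which encodes type XV collagen, was at 412 and 495 CPM in the members of libraries 1 and 2 and at 55.2 and 66.1 CPM in the other cells. Col4a1 was at 820.1 and 778 CPM in the members and at 162 and 141 CPM elsewhere. Col4a2 was at 474 and 465 CPM against 117 and 103 CPM. These collagen genes had the widest gaps of the rule genes, with log2 ratios of 2.90 and 2.90 for Col15a1, 2.34 and 2.47 for Col4a1 and 2.02 and 2.17 for Col4a2. Lpl (chr8:68880491-68907448, plus strand) was at 1630.4 and 1550.4 CPM against 548 and 539 CPM. Icam1 (chr9:21015985-21028817, plus strand) was at 442 and 427 CPM against 166 and 150.3 CPM. The gaps of Lpl and Icam1 were smaller, with log2 ratios of 1.57 and 1.52 for Lpl and 1.41 and 1.51 for Icam1.

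Detection per cell gave the same picture once every cell was thinned to 7388 UMIs, which left out 60 and 62 members and 300 and 245 other cells as too shallow. Col15a1 was found in 87.4% and 89.6% of the members and in 28.0% and 30.7% of the other cells. Lpl was found in 99.6% and 99.8% of the members and still in 92.7% and 92.4% of the others. All 5 committed rule genes were found together in 68.7% and 69.8% of the members and in 8.33% and 8.41% of the others. Of the opposite markers, Dpp4 had a UMI in 25.2% and 25.9% of the members against 70.2% and 71.5% of the others, and 1 member of library 1 and 3 members of library 2 lacked all 5 Dpp4-pole genes at this depth. Cells with macrophage markers were taken as a background class for Dpp4 and were few. Before thinning there were 20 and 16, with median UMI counts of 7938 and 9880, and 11 and 9 were deep enough to keep. Of those kept, 45.5% and 55.6% had a Dpp4 UMI, so the members' Dpp4 share is not read as expression. These cells are no clean background, since 63.6% and 66.7% of them had a UMI of Dlk1, a preadipocyte gene described below. Whether their Dpp4 UMIs came from precursors was not tested. Of the same 11 and 9 cells 36.4% and 44.4% had a Col15a1 UMI and 90.9% and 66.7% an Lpl UMI. Whether these cells express Col15a1 or Lpl was not tested, so these shares are not read as background.

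A small number of members carried marker genes of vessel cells or macrophages, and they touch several results below. Cells with at least 4 of 8 listed markers of endothelial, mural or macrophage type, or of another type other than erythroid, made up 33 of the 1206 members (2.74%; 15 in library 1 and 18 in library 2), against 80 among all filtered cells. Erythroid markers were not counted here, since at least 4 of them were found in 226 members of library 1 and in 3 members of library 2. They included 27 of the 43 filtered cells with endothelial markers, 13 of the 18 with mural markers and 5 of the 36 with macrophage markers, and 12 carried both endothelial and mural markers. Their median UMI counts were 20621 and 20996, against 11411 and 10696 in the other members. The fibroblast transcripts Pdgfra and Dcn were lower in them: Pdgfra was at 32.9 and 38.8 CPM against 161 and 172 CPM in the remaining members, and Dcn was at 1246 and 1462 CPM against 6357 and 6549 CPM. No doublet caller was run, so doublets remain among the cells, and the part of doublets in these 33 cells was not tested. Values are given with all cells and, for part of the genes that change, also without these cells in both groups. Where only values with all cells are given, they can still depend on these cells.

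Summed over the 8 endothelial markers, the members were at 339 and 328 CPM with these cells and at 38.4 and 27.8 CPM without them, against 46.9 and 38.1 CPM in all other cells. The same markers define the cells left out, so a fall was built in. Mural markers summed to 105 and 105 CPM, to 43.7 and 40.2 CPM without these cells, and to 24.4 and 21.2 CPM in the others. Macrophage markers summed to 51.5 and 28.5 CPM in the members, below the 74.1 and 43.4 CPM of the others. Markers of tendon cells were higher in the members, at 129 and 136 CPM against 56.7 and 58.8 CPM, which was almost wholly Sox9, while Mkx and Acan were listed at 0. Epithelial markers and the lymphocyte markers Cd3e, Ms4a1 and Nkg7 were listed at 0 in the members. Krt5, Krt8, Krt14 and Krt18 were listed at 0 in every group of cells, so their 0 says nothing particular to the members. Haemoglobin transcripts differed between the libraries: the 5 erythroid markers summed to 2097 and 509.7 CPM in the members of libraries 1 and 2, to 873 and 20.8 CPM without these cells, and to 5400 and 20.1 CPM in the other cells.

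A gene was counted as higher or lower in the members when it differed at least 1.5-fold from the other filtered cells in the same direction in each library, among the 6767 genes at 10 CPM or more. By this rule 409 genes were higher (6.04% of those measured) and 417 were lower (6.16%). Without the cells carrying other types' markers, 329 of 6682 genes were higher and 449 were lower, and 317 of the 409 and 404 of the 417 were among them. The members' higher genes thus depended on the 33 cells more than the lower genes did. The median log2 ratio over all measured genes was −0.07 in library 1 and −0.08 in library 2.

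Markers of committed preadipocytes that the rule did not use were higher in the members as a group. Of the 12 such markers measured, 10 were higher and none lower, with median log2 ratios of 1.53 and 1.76, and 9 were higher without the other types' cells. Fabp4 (chr3:10204088-10208576, minus strand), the fatty acid binding protein of fat cells, was at 1690.2 and 1717 CPM in the members and at 301 and 254 CPM in the others. Its log2 ratios of 2.49 and 2.76 fell to 1.70 and 1.89 without the 33 cells, which held 56.2% and 60.2% of the members' Fabp4 UMIs. Cd36 (chr5:17781690-17888801, minus strand), a fatty acid transporter also made by capillary endothelium, was at 301 and 264 CPM against 56.7 and 40.0 CPM, and its log2 ratios of 2.41 and 2.72 became 1.94 and 2.32 without them. Both genes were thus higher in the members with and without the vessel-marked cells, by a smaller ratio without.

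Dlk1 (chr12:109452823-109463336, plus strand), also known as preadipocyte factor 1, an imprinted surface protein that is lost as fat cells mature, was at 1599 and 1362 CPM against 387 and 389.7 CPM. The log2 ratios of 2.05 and 1.81 were 2.10 and 1.87 without the other types' cells, so they did not rest on those cells. Aoc3, an amine oxidase of fat cells and vessel walls, was at 78.6 and 85.3 CPM against 21.6 and 23.1 CPM. Steap4, a metalloreductase, was at 206 and 241 CPM against 46.8 and 52.9 CPM. Ggt5, a gamma-glutamyl transferase family enzyme, was at 64.5 and 69.0 CPM against 19.4 and 19.05 CPM. The markers that did not pass were Plin2, a lipid droplet coat protein, with log2 ratios of 0.16 and 0.61, and the transcription factor Zfp423, with −0.72 and −0.43. Hsd11b1, which activates glucocorticoids, lay below the level minimum.

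The markers of Dpp4-type interstitial progenitors outside the rule stood on the other side. Of 12 measured, 11 were lower in the members and none higher, with median log2 ratios of −1.69 and −1.80. Sema3c, a secreted semaphorin, was at 151 and 137 CPM against 524 and 498 CPM. Cd55, a surface inhibitor of complement, was at 59.4 and 63.0 CPM against 198 and 208 CPM. Only Ly6c1 did not pass the fold, with log2 ratios of −0.56 and −0.62, and it passed without the other types' cells, at −0.59 and −0.67.

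The transcription factors of fat cell formation were mostly level. Of 21 measured, 4 were higher and 1 lower in the members, with medians of 0.16 and 0.17. Pparg was at 24.4 and 25.2 CPM in the members against 9.73 and 7.62 CPM, with log2 ratios of 1.33 and 1.72. Without the other types' cells its ratios were 1.27 and 1.37. Cebpa, which acts with Pparg, was at 22.7 and 25.9 CPM against 9.70 and 9.45 CPM, with log2 ratios of 1.23 and 1.45. At 7388 UMIs per cell Pparg was found in 15.9% and 12.7% of the members and in 6.97% and 5.18% of the others and in 9.09% and 0% (exact upper bound 33.6%) of the 11 and 9 macrophage-marker cells, so that most members had no Pparg UMI at this depth. Cebpb, an early factor of the cascade, had log2 ratios of 0.73 and 0.82, and Stat5a, a mediator of prolactin and growth hormone signals, had 0.73 and 0.72. Klf4 was lower, at 579 and 699 CPM against 893 and 1131 CPM. Ebf1 and Ebf2, which mark the lineage at large, were near level, with log2 ratios of 0.16 and 0.16 for Ebf1 and −0.18 and −0.15 for Ebf2.

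Most genes of the mature fat cell were detected at low levels only. Of 17 listed, 4 reached the level minimum, with median log2 ratios of 1.28 and 1.37 (0.67 and 0.71 without the other types' cells): Fabp4 and Car3, a carbonic anhydrase, were higher, Scd1, the stearoyl-CoA desaturase, was lower, and Pnpla2, a triglyceride lipase, did not pass. Car3 was at 15.4 and 48.6 CPM in the members against 2.58 and 9.22 CPM, a gap between libraries as well as between cells. Its log2 ratios of 2.57 and 2.40 became 2.16 and 1.71 without the other types' cells. Scd1 was at 19.7 and 23.0 CPM against 37.1 and 44.8 CPM. Adipoq, which encodes the hormone adiponectin, had 11 and 13 UMIs in all members, or 1.69 and 1.87 CPM, and Lep, which encodes leptin, had 1 and 2 UMIs. Plin1, the main lipid droplet coat protein of fat cells, was at 0.614 and 4.46 CPM against 0.352 and 0.931 CPM. Cfd, which encodes adipsin, was at 3.38 and 9.06 CPM against 0.85 and 1.74 CPM. Some of these low transcripts were thus above their level in the other cells, while 13 of the 17 genes lay below the minimum.

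Genes for the uptake and handling of lipid were higher as a list, with 9 of 17 measured genes higher, none lower and medians of 0.73 and 0.84. Apoe (chr7:19696109-19699188, minus strand), the lipoprotein ligand, was at 1044 and 1414 CPM against 319 and 357 CPM, with log2 ratios of 1.71 and 1.98 that were 1.85 and 2.05 without the other types' cells. Pltp, the phospholipid transfer protein, was at 83.6 and 78.5 CPM against 47.0 and 44.0 CPM. Hilpda, a lipid droplet protein, was at 38.6 and 49.9 CPM against 22.5 and 26.8 CPM. These genes kept their ratios when the vessel-marked cells were left out.

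Other members of the lipid list did not. Gpihbp1, the endothelial anchor of lipoprotein lipase, had log2 ratios of 2.60 and 2.72 with all cells and of 0.15 and 0.20 without the 33 cells, where it fell below the level minimum. Scarb1, the high-density lipoprotein receptor, went from 1.79 and 1.68 to 0.36 and 0.34. Fabp5 went from 0.96 and 0.81 to 0.53 and 0.50. Mgll, the monoglyceride lipase, moved the other way: at 72.3 and 90.03 CPM against 104 and 104 CPM it did not pass, but without these cells it was at 32.2 and 33.7 CPM against 101 and 103 CPM, with log2 ratios of −1.65 and −1.61. Without them the list counted 6 of 16 genes higher and 1 lower, with medians of 0.38 and 0.42.

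Fatty acid oxidation, the pathway named in the study's title, was near level between the members and the other cells. Of 20 measured genes 1 was higher and none lower, with medians of −0.05 and 0.04. That gene was Ucp2, a mitochondrial carrier, at 25.8 and 27.2 CPM against 15.4 and 10.99 CPM. Its log2 ratios of 0.74 and 1.31 became 0.64 and 1.03 without the other types' cells. Cpt1a, the carnitine palmitoyltransferase that admits fatty acids to the mitochondrion, was at 19.05 and 15.7 CPM against 24.5 and 22.4 CPM, and did not pass. Of 11 lipid synthesis genes, Scd1 and Scd2 were lower and none was higher.

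**Figure D2:**
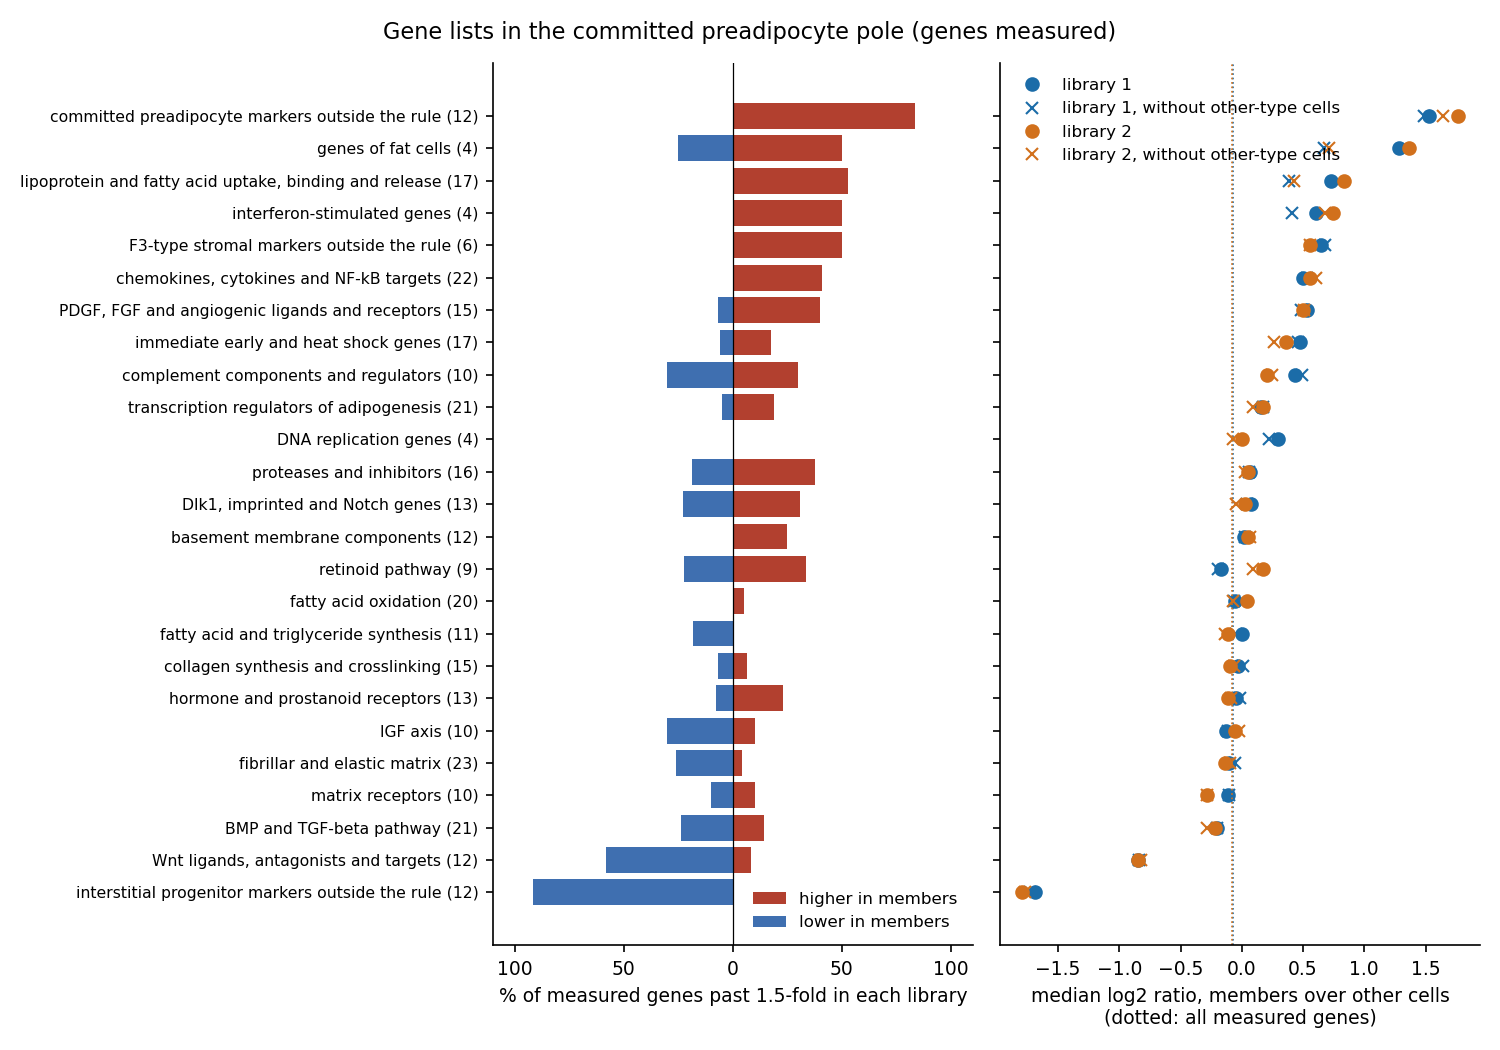
Left, percentage of each list's measured genes that were higher (right of 0) or lower (left of 0) in the members; right, median log2 ratio of each list in library 1 and library 2, with all measured genes dotted, for 25 gene lists. Lists of committed markers and lipid uptake lie to the higher side (medians 1.53 and 1.76, 0.73 and 0.84), those of progenitor markers and Wnt signalling to the lower (−1.69 and −1.80, −0.85 and −0.85).

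The high basement membrane transcripts of the members were a small set of chains. Outside the rule, 3 of 12 measured basement membrane genes were higher, none was lower, and the medians were 0.01 and 0.05. Nid2, one of the nidogens that link laminin to type IV collagen, was at 59.3 and 61.3 CPM against 23.2 and 21.3 CPM. Col18a1, the sister of Col15a1 and source of endostatin, was at 32.6 and 42.6 CPM against 15.2 and 15.3 CPM. Col6a3, a chain of the type VI collagen microfibrils, was at 1369.7 and 1355 CPM against 759 and 753 CPM. The laminin chains were near level, with log2 ratios of −0.05 and −0.08 for Lama2, 0.04 and 0.07 for Lama4 and −0.36 and −0.42 for Lamb2. Nid1 had −0.32 and −0.42, and Hspg2, which encodes perlecan, had 0.20 and 0.18.

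Fibrous interstitial matrix was on the lower side. Of 23 measured genes, 6 were lower and 1 was higher, with medians of −0.10 and −0.14. Fn1, fibronectin, was at 1488 and 1466 CPM in the members against 3292 and 3728 CPM. Fbn1, the microfibril protein fibrillin 1, was at 1099.8 and 974 CPM against 2302 and 2196 CPM. Mfap5, a partner of fibrillin, was at 1938 and 1697 CPM against 4048 and 3873 CPM. Emilin2, Col14a1 and Eln were also lower, with log2 ratios of −1.35 and −1.30, −0.89 and −1.05, and −0.83 and −0.66. Mfap4, another elastic fibre protein, was the 1 gene that was higher, at 799 and 541 CPM against 393 and 239.6 CPM. Decorin, encoded by Dcn, was level at 6119 and 6285 CPM against 5951 and 6273 CPM.

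Matrix proteases and their inhibitors split both ways, with 6 of 16 higher and 3 lower. Mmp19 was at 53.9 and 65.4 CPM against 16.03 and 19.3 CPM, and Mmp3, stromelysin 1, was at 66.8 and 83.6 CPM against 25.4 and 37.6 CPM. The aggrecanase Adamts5 was lower, at 149.6 and 150.2 CPM against 353 and 358 CPM, as were the metalloprotease inhibitors Timp2, with log2 ratios of −0.66 and −0.76, and Timp3, with −0.71 and −0.91. Adamts9 passed with all cells, at log2 ratios of 2.12 and 1.31, but fell below the level minimum without the other types' cells. Among collagen processing genes, 1 of 15 was higher and 1 lower. Pcolce, which enhances procollagen cleavage, was at 2867 and 2735 CPM against 1674 and 1635 CPM, and P4ha3, a prolyl hydroxylase subunit, was lower at 16.7 and 17.1 CPM against 37.2 and 34.8 CPM.

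Inflammatory genes were higher in the members beside Icam1. Of 22 measured, 9 were higher and none lower, with medians of 0.50 and 0.56, and 10 were higher without the other types' cells. Cxcl12, a chemokine that retains lymphoid and haematopoietic cells, was at 647 and 637 CPM against 339 and 354 CPM. Ccl11, the eosinophil chemokine eotaxin, was at 412 and 467 CPM against 146 and 228 CPM. Ccl8 was at 70.7 and 114 CPM against 29.0 and 39.6 CPM. All 3 chemokines were higher in both libraries.

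Cxcl1, a neutrophil chemokine, was at 4885 and 4892 CPM against 2936 and 2772 CPM. Il6 was at 545 and 503 CPM against 272 and 269.6 CPM. Vcam1, an adhesion molecule like Icam1, was at 202 and 220.5 CPM against 97.6 and 104 CPM. Il1r1, the signalling receptor of interleukin 1, was at 73.6 and 89.6 CPM against 28.9 and 32.3 CPM, and Tnfaip6, a hyaluronan-binding protein, was at 4741 and 5229 CPM against 2733 and 2946 CPM. Other inducible genes did not pass: Cxcl2 had log2 ratios of 0.26 and 0.49, Ccl2 had 0.19 and 0.03, and Nfkbia, the feedback inhibitor of NF-kB, had 0.13 and 0.07. Genes that respond to tissue dissociation also leaned higher: 3 of 17 were higher and 1 lower, with medians of 0.47 and 0.36. Zfp36 was at 1888 and 1771 CPM against 1149 and 1085 CPM, and Nr4a1 was lower, at 62.2 and 68.5 CPM against 100.4 and 108 CPM. The part of dissociation in the inflammatory values was not tested.

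Complement genes were higher and lower in equal number. The proteases that start the classical pathway were higher, with C1s1 at 346 and 384 CPM against 145 and 175 CPM and C1ra at 328 and 350.1 CPM against 141 and 168 CPM. C4b was also higher, with log2 ratios of 1.07 and 0.76. The regulator Cd55 was lower, as given above, and so was Clu, clusterin, at log2 ratios of −0.65 and −0.70. Other regulators lay below the level minimum, with Cd59a at 2.92 and 3.88 CPM against 1.29 and 1.72 CPM. In all, 3 of 10 measured complement genes were higher and 3 lower.

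Among hormone receptors, 3 of 13 measured were higher in the members and 1 was lower. Prlr (chr15:10177238-10349180, plus strand) was at 101 and 96.9 CPM in the members against 21.6 and 21.1 CPM, with log2 ratios of 2.23 and 2.20. It was found in 46.1% and 43.2% of the members at 7388 UMIs per cell and in 12.7% and 12.1% of the others. Of the cells with macrophage markers, which also carried precursor transcripts, 9.09% and 22.2% had a Prlr UMI, over only 11 and 9 cells. The prostaglandin receptors Ptger3 and Ptgir were low but higher in the members, at 18.4 and 19.8 CPM against 2.99 and 3.23 CPM and at 12.7 and 15.7 CPM against 2.40 and 3.26 CPM, and their log2 ratios, 2.62 and 2.62 for Ptger3 and 2.41 and 2.27 for Ptgir, were above those of Prlr. Ghr, the growth hormone receptor, and Esr1, the oestrogen receptor, were near level, with log2 ratios of −0.05 and 0.01 and of −0.27 and −0.20.

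Binding proteins of the insulin-like growth factors went opposite ways. Igfbp7 (chr5:77349240-77408041, minus strand) was at 2346 and 2487 CPM in the members against 716 and 717 CPM. Igfbp5 was at 153 and 218 CPM against 794 and 802 CPM, and Igfbp6 was at 871 and 932 CPM against 2019 and 2269 CPM. The growth factor Igf1 itself did not pass, with log2 ratios of 0.48 and 0.73. Of the 10 genes of this list, 1 was higher and 3 were lower, the last being the imprinted adaptor Grb10, with −0.73 and −0.73.

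Imprinted growth genes also divided. Mest, which marks expanding fat tissue, was at 233 and 238 CPM against 95.5 and 93.6 CPM, and Dlk1 was higher as given above, whereas Cdkn1c, an inhibitor of cell division, was at 237 and 220.0 CPM against 478 and 489 CPM. Dlk1 is a ligand-like protein of the Notch family. Among the receptors, Notch3 was at 35.6 and 33.2 CPM against 6.56 and 5.06 CPM, with log2 ratios of 2.44 and 2.71 that stayed at 2.26 and 2.49 without the cells carrying mural and other markers. Notch2 was lower, with −0.71 and −0.76, and the ligand Jag1 was lower, with −1.33 and −1.37. Of the 13 imprinted and Notch genes 4 were higher and 3 lower.

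Secreted Wnt pathway genes were lower in the members. Of 12 measured, 7 were lower and 1 was higher, with medians of −0.85 and −0.85. Sfrp2, a secreted Wnt antagonist, was at 296 and 309 CPM against 844 and 923 CPM. Sfrp4, of the same family, was at 289.9 and 188 CPM against 589 and 391 CPM. Rspo3, which amplifies Wnt signals, was at 6.61 and 5.03 CPM against 21.1 and 21.3 CPM, and Dkk3 was at 10.9 and 8.92 CPM against 30.2 and 32.1 CPM. Activators and antagonists were thus lower side by side. The receptor Fzd4 was the gene that was higher, at 52.1 and 40.0 CPM against 29.0 and 26.3 CPM, and it no longer passed without the other types' cells, at 0.84 and 0.57.

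Among bone morphogenetic protein and transforming growth factor beta genes, 3 of 21 were higher and 5 lower. Bmp4 was low in the members, at 3.07 and 3.74 CPM against 24.3 and 22.8 CPM. Bmper, which binds these ligands outside the cell, was at 52.7 and 54.4 CPM against 16.4 and 14.3 CPM. Tgfb2 was lower, at 9.68 and 11.6 CPM against 29.6 and 33.9 CPM, and so was the receptor Tgfbr2, at 108 and 122 CPM against 212 and 258 CPM. Id1, a target of these signals, had log2 ratios of 1.74 and 1.78 with all cells and of 0.05 and 0.37 without the other types' cells.

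Growth factor and retinoid genes completed the lists. Of 15 growth factor genes 6 were higher and 1 lower, with medians of 0.53 and 0.50. Nrp1, a co-receptor of vascular growth factors and semaphorins, was at 196 and 188 CPM against 83.7 and 82.6 CPM. Fgf10, a growth factor needed for fat development, was at 45.0 and 41.4 CPM against 23.7 and 24.2 CPM. Pdgfrb was higher, at 44.4 and 49.5 CPM against 25.7 and 24.9 CPM, while its partner Pdgfra, a marker of adipocyte precursors at large, did not pass, at 155 and 165 CPM against 122 and 123 CPM. Of 9 retinoid genes, 3 were higher and 2 lower. Rbp4, the retinol carrier of plasma, was at 62.2 and 65.7 CPM against 18.9 and 20.2 CPM, and Aldh1a3, which makes retinoic acid, was at 24.1 and 23.6 CPM against 116 and 98.4 CPM.

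Several of the genes with the largest ratios at 50 CPM or more, predicted gene models left out, belonged to none of these groups. Spon1 (chr7:113765998-114043370, plus strand), the matrix protein F-spondin, was at 54.2 and 64.1 CPM against 8.32 and 8.64 CPM and was found in 20.5% and 21.2% of the members at 7388 UMIs, against 4.46% and 5.45% of the others and 0% (exact upper bound 28.5%) and 33.3% of the 11 and 9 macrophage-marker cells. In library 2 the members' share was below that of this background class, which held 3 positive cells. Sparcl1, the matrix protein hevin, was at 161 and 198 CPM against 28.8 and 28.1 CPM. Its log2 ratios of 2.48 and 2.82 became 2.19 and 2.52 without the other types' cells. Rgs16, which damps G-protein signals, was at 159 and 186 CPM against 36.7 and 37.5 CPM. Plvap, a protein of endothelial pores, was at 71.9 and 72.9 CPM against 15.9 and 15.8 CPM, and unlike the endothelial markers it kept log2 ratios of 2.12 and 2.14 without the vessel-marked cells. Iigp1, an interferon-inducible GTPase, was at 57.6 and 80.5 CPM against 15.03 and 19.02 CPM, with log2 ratios of 1.94 and 2.08 that were 1.31 and 1.98 without those cells. AW112010 was also higher, at 65.4 and 81.5 CPM against 12.7 and 18.5 CPM.

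At the low end, Akr1c18, a steroid-metabolising enzyme, was at 182 and 177 CPM in the members against 950.3 and 939 CPM. Gap43, a growth-associated protein of nerve endings, was at 62.4 and 70.3 CPM against 329.9 and 356 CPM. Smpd3, a neutral sphingomyelinase, was at 9.68 and 19.6 CPM against 51.3 and 140.2 CPM, and it was the lowest gene of library 2 relative to the others among those named. Cthrc1, a secreted protein of collagen-rich tissue, was at 134 and 116 CPM against 560.3 and 539.5 CPM. Tmem100, Krtdap, Car8 and Lurap1l were lower by log2 ratios between −1.90 and −2.35. None of these values changed its direction without the other types' cells.

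**Figure D3:**
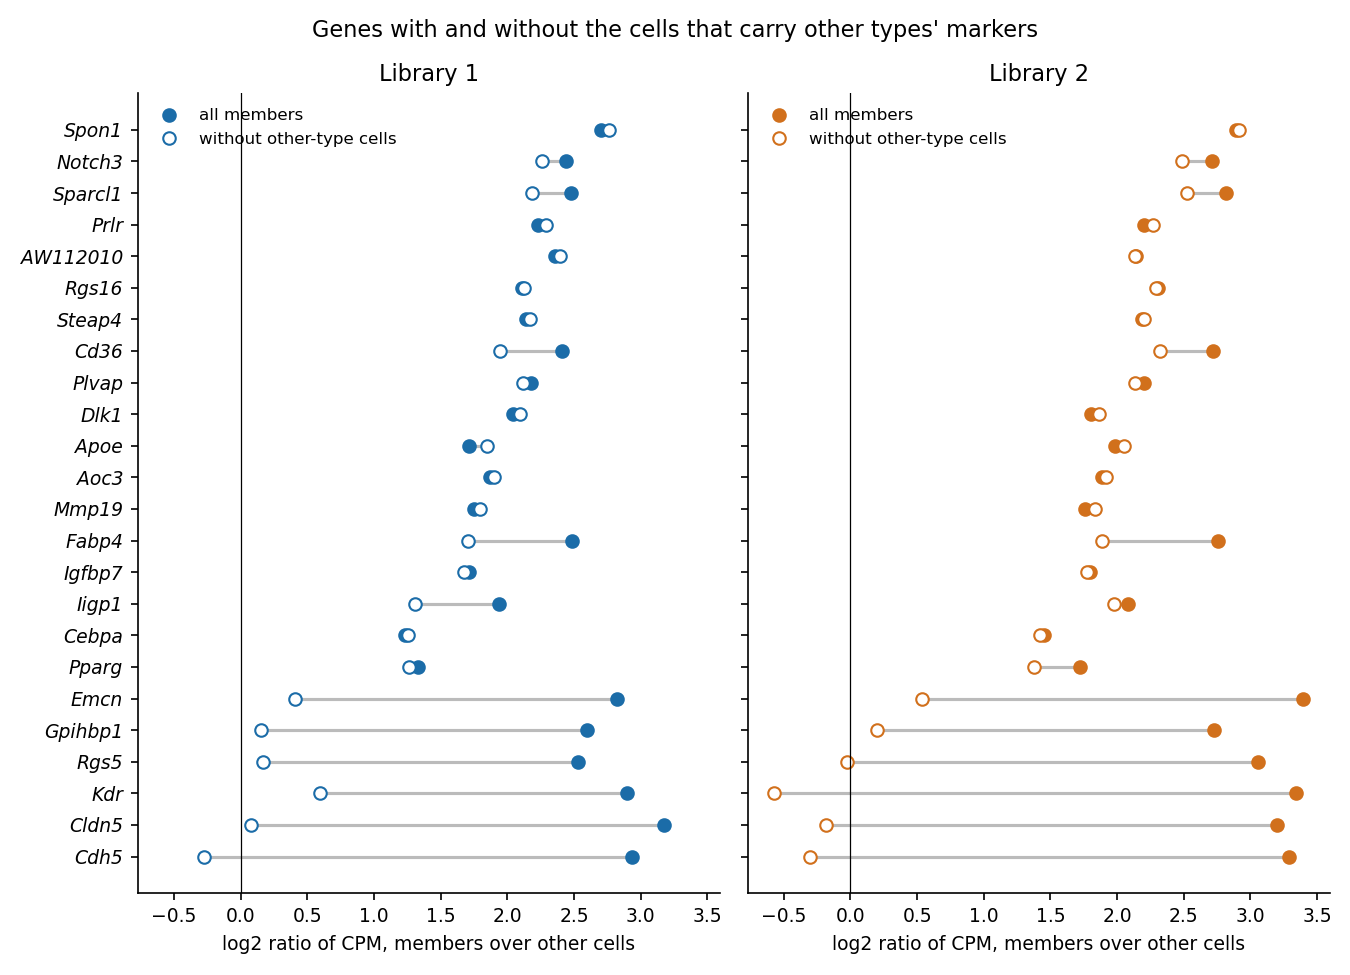
Log2 ratio of CPM in the members over the other cells (horizontal axis) for 24 genes in library 1 and library 2, with all cells (filled) and without the cells that carry other types' markers (open). Spon1, Prlr, Dlk1 and Apoe hardly move, Fabp4 goes from 2.49 and 2.76 to 1.70 and 1.89, and Cldn5, Kdr, Cdh5, Emcn, Gpihbp1 and Rgs5 drop to between −0.57 and 0.60. Cldn5, Kdr, Cdh5, Emcn and Rgs5 are among the markers that define the cells left out, so their drop was built in.

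The endothelial genes among the highest ratios fell when the vessel-marked cells were left out. Cldn5, Kdr, Cdh5 and Rgs5 are among the markers that define these cells, so their fall was built in. Itga6 is not one of those markers. Cldn5, the tight junction protein claudin 5, had the highest log2 ratios of the named genes in library 1, 3.18, and 3.20 in library 2, and 92.5% and 93.8% of the members' Cldn5 UMIs came from the 33 cells. Without them its ratios were 0.08 and −0.19. Kdr and Cdh5, further endothelial genes, went from 2.90 and 3.34 to 0.60 and −0.57 and from 2.94 and 3.29 to −0.27 and −0.30. Rgs5, a pericyte gene, went from 2.53 and 3.06 to 0.17 and −0.02. Itga6, an integrin subunit, went from 2.37 and 2.38 to 0.06 and 0.23. The rule genes themselves changed little, with Col4a1 at 2.26 and 2.39 and Col15a1 at 2.93 and 2.94, although 12.2% and 11.3% of the members' Col4a1 UMIs lay in these cells.

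Along D the named genes changed gradually. The filtered cells other than F3-type were placed in 10 bins of equal size, of which bins 1 and 2 held the members. Igfbp7 was at 2562 and 2692 CPM in bin 1 of libraries 1 and 2, at 1152 and 1212 CPM in bin 4 and at 241 and 243 CPM in bin 10. Dlk1 was at 1782 and 1474 CPM in bin 1, 808 and 827 CPM in bin 3 and 234 and 238 CPM in bin 10. Prlr was at 105 and 105 CPM in bin 1, at 63.8 and 64.3 CPM in bin 3 and at 6.05 and 4.70 CPM in bin 10. Bins 3 and 4, outside the members, thus held levels between those of the members and those of the far end. Igfbp5 ran the other way, from 163 and 243 CPM in bin 1 to 1492 and 1449 CPM in bin 10.

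Fabp4 was highest in bin 2, at 1836 and 2159 CPM against 1593 and 1207 CPM in bin 1, when all cells were summed. Without the vessel-marked cells it was at 855 and 833 CPM in bin 1, at 699 and 581 CPM in bin 2 and at 504 and 496 CPM in bin 3. Its level then fell from bin 1 to bin 3 in both libraries. Cldn5 was likewise at 167 and 201 CPM in bin 2 with all cells and at 10.6 and 7.93 CPM without them.

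**Figure D4:**
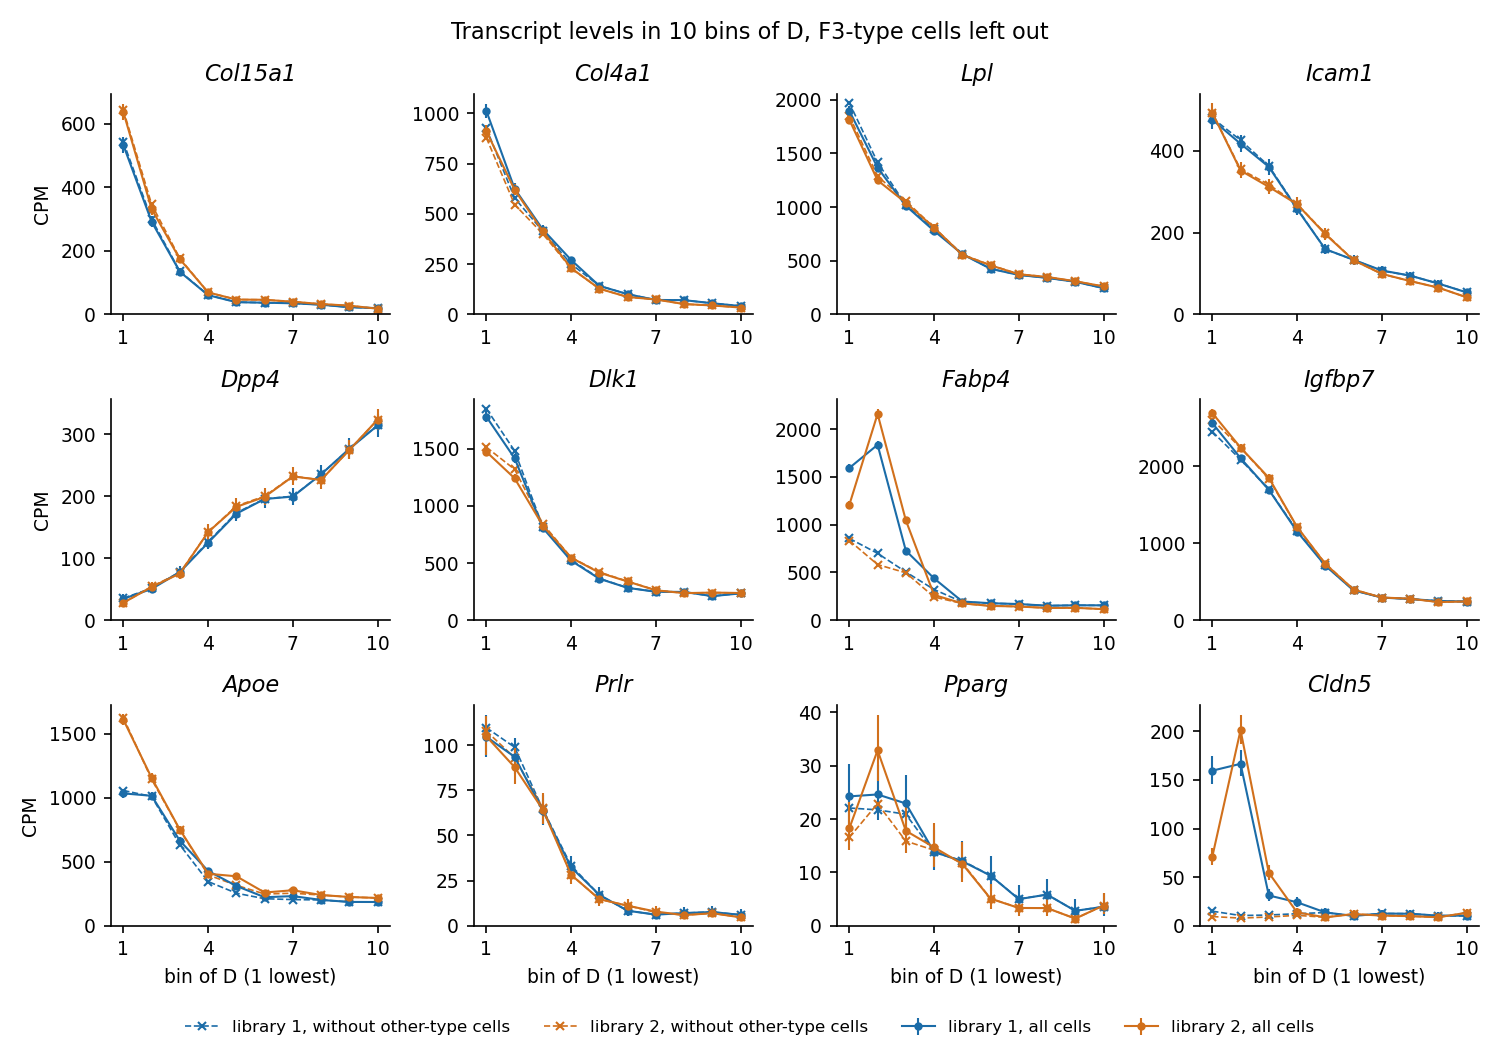
CPM of 12 genes (vertical axes, separate scales) in 10 bins of D (horizontal axis, lowest first) in library 1 and library 2, with 95% exact Poisson intervals; solid lines sum all cells and dashed lines leave out cells with other types' markers. Igfbp7 goes from 2562 and 2692 CPM in bin 1 to 241 and 243 CPM in bin 10 without a step, while the Cldn5 lines lie at 10.6 and 7.93 CPM in bin 2 once those cells are left out.

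The F3-type cells, which the rule takes out, share part of the committed pattern, and the comparison with them shows what was higher in the members than in this neighbour. There were 181 and 220 such cells. Among 6704 measured genes 193 were at least 1.5-fold higher in the members in both libraries (2.88%) and 221 were lower (3.3%), with median log2 ratios over all measured genes of −0.09 and −0.05. Leaving out the cells with other types' markers lowered the count of higher genes to 120 with erythroid markers counted among these and to 124 without. Of the 409 genes higher than in the other cells, 164 were also higher than in F3-type cells and 4 were lower. Since F3-type cells are among the other cells of the first comparison, the counts share cells.

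Of the lipid uptake genes, 7 of 18 were higher in the members than in F3-type cells and 1 was lower, with medians of 0.23 and 0.75, and of 13 lipid synthesis genes none was higher and 2 were lower. Col15a1 was at 412 and 495 CPM against 156 and 222 CPM, and Dlk1 was at 1599 and 1362 CPM against 612 and 539.9 CPM. Spon1 was at 54.2 and 64.1 CPM against 14.4 and 16.1 CPM. Apoe had log2 ratios of 1.07 and 1.08, Cd36 had 1.28 and 1.497 without the other types' cells, and Fabp4 had 1.06 and 1.44 without them. Lpl, by contrast, did not pass the fold, with log2 ratios of 0.57 and 0.53, and Igfbp7 was near level, with 0.26 and 0.24. Of the 12 committed markers outside the rule, 7 were higher than in F3-type cells and none lower, with medians of 0.77 and 0.86.

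Other genes differed less from F3-type cells. The complement proteases were near level, with C1s1 at 346 and 384 CPM against 331 and 368 CPM. Progenitor markers were lower in the members by less, with 2 of 11 lower and medians of −0.38 and −0.35. Of 23 inflammatory genes 4 were higher and 1 lower, and neither Cxcl1, with 0.45 and 0.35, nor Vcam1, with 0.20 and 0.53, passed. Prlr had log2 ratios of 0.64 and 0.34 and did not pass either.

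Lower in the members than in F3-type cells were 6 of 7 measured F3-type markers outside the rule, with medians of −1.60 and −1.49. Mgp, an inhibitor of calcification, was at 40.7 and 26.6 CPM against 235 and 228 CPM. Ifitm1 was at 16.4 and 17.5 CPM against 83.6 and 82.2 CPM. The transcription factor Osr1 was at 39.2 and 31.6 CPM against 123 and 97.4 CPM. Sfrp4 was at 289.9 and 188 CPM against 879.7 and 582 CPM, and complement C2 was at 51.0 and 49.9 CPM against 146 and 140.2 CPM. Of 10 Wnt genes measured in this comparison 5 were lower and none higher. Against all other filtered cells, by contrast, 3 of 6 measured F3-type markers outside the rule were higher in the members and none was lower. Their medians there were 0.64 and 0.56, and 2 were higher without the other types' cells.

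**Figure D5:**
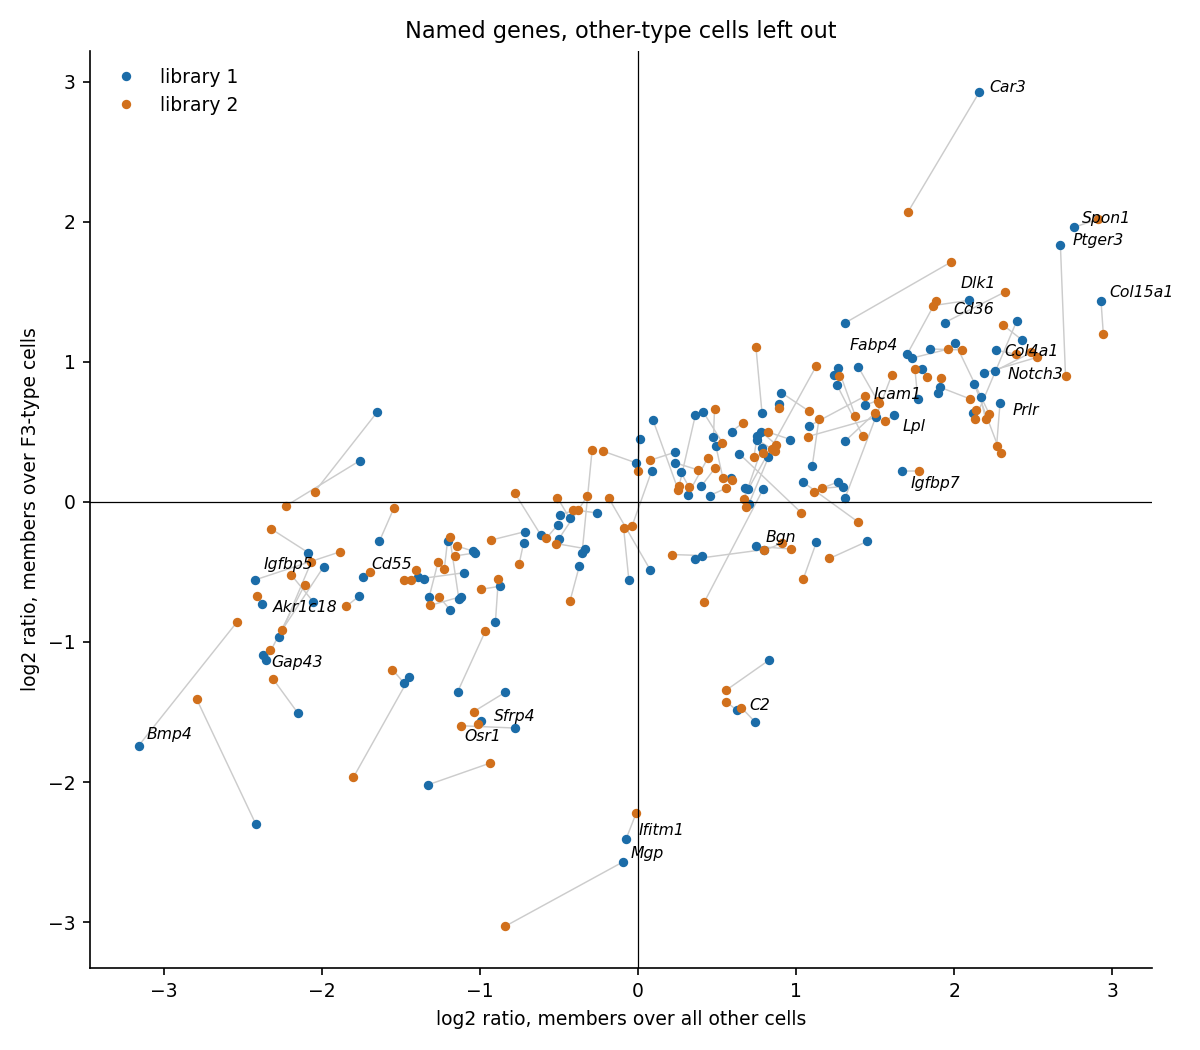
Log2 ratio of CPM in the members over all other cells (horizontal axis) and over F3-type cells (vertical axis) for 128 named genes, 1 point per library joined by a line, cells with other types' markers left out. Both ratios are above 0 in both libraries for 61 genes, among them Spon1, Dlk1 and Col15a1, while Mgp and Ifitm1 have the lowest ratios over F3-type cells among the genes labelled. The axes share the members' values.

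Among the members themselves the variance over the mean of UMIs between cells was highest for chemokines, Malat1, metallothioneins and Fos. For a gene that varies beyond counting error this ratio rises with the mean, so its rank is not a rank of relative spread. Cells were thinned to 7388 UMIs, cells with other types' markers were left out (leaving 497 and 560 cells), and the variance was divided by the mean for 5119 genes; the median of this ratio over the genes was 1.01, near the value of 1 that counting alone gives. Ccl2, the monocyte chemokine, had the highest ratios, 28.6 and 28.9, around means of 17.0 and 17.9 UMIs, with 99.2% and 98.6% of cells positive and up to 137 and 149 UMIs in a cell. Ccl7 had 27.0 and 28.0, Cxcl1 had 17.5 and 18.0, and the immediate early gene Fos had 24.3 and 20.5. The nuclear RNA Malat1 ranked 3, with 25.5 and 24.7 around means of 135 and 151 UMIs. The collagen genes Col1a1, Col3a1 and Col1a2 ranked 9 to 11, with ratios between 14.5 and 15.8. Il6 ranked 22, with 8.18 and 10.5 around far lower means of 4.20 and 3.92 UMIs. The metallothioneins Mt1 and Mt2, which bind zinc, had 19.9 and 22.6 and 22.0 and 23.7.

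Of the genes that mark the pole, Dlk1 ranked highest by this ratio among those named. Its ratios were 16.1 and 12.5 around means of 12.7 and 10.6 UMIs, with 95.4% and 94.6% of members positive, and it ranked 14 of the 5119 genes. Fabp4 ranked 1 when all members were used, with ratios of 69.7 and 104, and 51 without the vessel-marked cells, with 4.34 and 4.52.

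Between the libraries few genes passed the fold in the members. Of 6729 measured genes 70 were at least 1.5-fold higher in library 2 (1.04%) and 62 were lower (0.921%), with a median log2 ratio of −0.00, and 20 of these 132 genes passed the fold in the same direction in the other cells. Without the cells carrying other types' markers, erythroid included, 113 genes were higher and 134 lower. As the libraries cannot be assigned to the milk fats and each is a single sample, library and milk fat cannot be told apart here, and these values carry no direction for either. Haemoglobin transcripts had the largest gaps, with Hbb-bs, a beta-globin gene, at 1115 CPM in the members of library 1 and 226 CPM in those of library 2, and at 2491 and 9.92 CPM in the other cells. In library 2, 95.4% of the members' Hbb-bs UMIs lay in the 18 members of that library with other types' markers.

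Apart from these, Sfrp4 was lower in library 2, with a log2 ratio of −0.63 (95% exact interval −0.73 to −0.53) in the members and −0.59 in the other cells. Ccl8 was higher, by 0.69 (0.53 to 0.86) in the members and 0.45 in the others, Tmem176b by 0.61 and 0.28, and Gbp2, an interferon-inducible GTPase, by 0.60 and 0.25. Igfbp5 did not pass, with 0.51 (0.39 to 0.62) in the members and 0.01 in the others. The rule genes were close, with ratios of 0.26 for Col15a1, −0.07 for Lpl and −0.05 for Icam1. Cells counted as Xist-positive, with a threshold of 4 Xist UMIs, numbered 1360 and 1420, and 18.8% and 18.1% of them were members. Cells counted as Y-positive numbered 798 and 1022, and 17.9% and 18.3% of them were members, a like rate. The 2 classes were used to separate the sexes of the pups. The rest of the 3220 and 3450 filtered cells fell in neither class.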

How the data were processed

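The deposited matrix holds raw counts, as UMIs per gene and cell barcode, for 27998 genes and 6905 barcodes of 2 libraries; the tools and build named, per the submitters' processing notes, are Seurat 3.0.1, Cell Ranger in a version not given in the sources used here, and mm10, without their roles. Gene positions come from a GRCm38 annotation and promoter windows from RefSeq. The members and gene lists were chosen with earlier results of these data known. Cells with at least 500 genes, at most 10% mitochondrial UMIs and fewer than 2 UMIs of Mki67 and Top2a were kept, so 4 cells with few genes and 18 with high mitochondrial shares were dropped. The columns of the matrix were assigned by barcode ending. UMIs were summed per library over the cells of each group and scaled to CPM by the total count; the groups were compared by log2 ratios with conditional exact intervals at 95%, in Python 3.11.15 with numpy 2.4.6, scipy 1.17.1 and pandas 2.3.3. No p-values were computed, since each milk fat has 1 library, and cells are not replicates.

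A gene was measured at 10 CPM or more in at least 1 group of each library. Named genes were the 5 rule genes and the 15 highest and 10 lowest at 50 CPM or more and 2-fold or more. Added to these were up to 4 per list with the largest ratio and the 8 with the highest variance over mean. So were 5 each way against F3-type cells and between libraries. Ribosomal, mitochondrial and predicted gene models were left out. Further genes of the lists, such as Mgll and Dcn, were picked for the text after their values were seen. For detection and variation, cells were thinned to 7388 UMIs. No doublet caller was run. In 15 alternative settings, and 2 more chosen after seeing the data, the values were recomputed; these covered the cell filters, the boundary of D, its genes, depth, level minimums and TMM scaling (edgeR 4.0.16, used for scaling factors only). The sums and ratios were tested on simulated counts. List symbols not matched to 1 gene were Cebpd, Leprel1, Ccl19, Ltbp4, Vegfd and Trac. Reads of near-identical copies, such as Hba-a1 and Hba-a2, Hbb-bs and Hbb-bt, or C1ra and C1s1 with their duplicates, may be split between copies. Some genes of the lists are counted but not reported here by name.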

Additional observations from a re-analysis of the deposited data

Results flagged for a closer look

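Results are given here when a contrast had opposite signs in 2 groups of cells or in the 2 libraries; none of these differences was tested. The metallothionein Mt2 had a log2 ratio of library 2 over library 1 of 0.096 in the members and of −0.014 in the other cells. For Mgp, which marks F3-type cells, this ratio was −0.61 in the members and 0.28 in the other cells.

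The haemoglobin genes were lower in the members than in the other cells of library 1 and higher in those of library 2. Hbb-bs had log2 ratios of −1.16 and 4.51, Hba-a1 of −1.61 and 4.87, Hba-a2 of −1.64 and 4.74, and Hbb-bt of −1.29 and 4.83. Without the cells carrying other types' markers, Hbb-bs had ratios of −2.32 and 0.15. At least 4 erythroid markers were found in 1355 filtered cells of library 1, 226 of them members, and in 3 filtered cells of library 2, all of them members.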

How the results depend on the processing

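The share of members followed the boundaries: it was 8.57% and 9.97% in libraries 1 and 2 for the bottom 10% of D, 26.5% and 26.6% for the bottom 30%, 19.1% and 20.8% with no F3-type cells taken out and 15.7% and 16.8% with the top 12% of the F3 score taken out, against 17.6% and 18.5%. Against the other cells, the 409 higher and 417 lower genes became 165 and 165 at a minimum of 50 CPM and 1457 and 1047 with no minimum, and the 120 listed genes that passed became 77 at 50 CPM. Against F3-type cells, the 193 higher and 221 lower genes became 69 and 61 at 50 CPM and 532 and 886 with no minimum; leaving out cells with other types' markers gave 120 higher genes with erythroid markers counted among these and 124 without. Between the libraries, the 70 higher and 62 lower genes became 4 and 6 at 50 CPM, and 113 and 134 without other types' cells, erythroid included. A level minimum changes how many genes enter each count; the cause of the other shifts was not tested.

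Values that changed sign, as means of both libraries, were those of vessel genes. Leaving out cells with at least 4 markers of another type put Cldn5 at −0.065 and Cdh5 at −0.20 (erythroid included) or at −0.072 and −0.32 (not included), and with at least 3 markers they were at −0.078 and −0.37. With D computed without Col4a1 and Col4a2, Cldn5 was at −0.85, Cdh5 at −1.39, Gpihbp1 at −1.04, Itga6 at −1.09, Id1 at −0.20, Kdr at −1.52, Emcn at −0.24 and Rgs5 at −0.76. With no level minimum the median of the matrix receptor list was 0.23. Of the other values of single genes, 1946 moved by no more than their counting interval or the gap between the libraries and 185 by more, and of the list medians 381 moved by no more than that gap (or 0.1) and 42 by more. Scores from thinned cells kept 80.7% of the members, and D without Col4a1 and Col4a2 kept 86.6%. No paired analysis was possible because each milk fat has 1 sample and no test was run. TMM moved the median gene by 0.034 and 0.04. Depth limits genes under 10 CPM, and 3 UMIs in the members equal 0.461 and 0.431 CPM.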
